A study of Mus musculus with 2 samples.

Results

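The Mir200 family, Mir205 and Mir203 are microRNA (miRNA) genes best known from epithelia. They were examined here in limb tissue of B6NCrl mouse embryos of both sexes at embryonic day 10.5. The 7 genes were chosen by their symbols: Mir200b, Mir200a and Mir429 of one cluster, Mir200c and Mir141 of another, and the skin genes Mir205 and Mir203. They are 7 of the 1973 miRNA genes counted, and all 7 matched an identifier in the count tables. The study sequenced short RNAs from 2 libraries of 1 group. Each library was a biological replicate made from pooled embryos, 69 in replicate 1 and 51 in replicate 2, and the labels name no treatment, mutant allele or other age to compare. Every contrast below is therefore between genes or between these 2 libraries, and an exact two-sided sign-flip test on 2 libraries cannot give a p below 0.5. No p-values are given for that reason.

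A miRNA is cut from a hairpin precursor and represses messenger RNAs that pair with its seed, which is bases 2 to 8 of the mature strand. The Mir200 miRNAs repress the transcription factors Zeb1 and Zeb2, which switch off E-cadherin, and so hold cells in an epithelial state. Mir205 is abundant in stratified epithelia and their basal cells, and Mir203 is known for repressing p63 as skin cells leave the basal layer and differentiate. The early limb bud is mostly mesenchyme under a thin sheet of surface ectoderm, whose thickened rim is the apical ectodermal ridge.

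The mature sequences show how the 7 genes fall into groups. All are RefSeq entries on GRCm38.p6, written from the 5′ end, with the seed in capitals. The arm shown is the one each miRNA is known for, the 3p arm except for Mir205. The deposited counts are per hairpin and do not separate the arms.
miR-200b-3p: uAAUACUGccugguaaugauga
miR-200c-3p: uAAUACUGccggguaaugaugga
miR-429-3p: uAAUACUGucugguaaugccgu
miR-200a-3p: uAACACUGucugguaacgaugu
miR-141-3p: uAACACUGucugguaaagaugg
miR-205-5p: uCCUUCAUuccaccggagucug
miR-203-3p: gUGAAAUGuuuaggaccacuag

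Mir200b, Mir200c and Mir429 carried the seed AAUACUG, and Mir200a and Mir141 the seed AACACUG. The seed groups differed from each other inside the seed by the single substitution U4C, counted from 1 at the 5′ end. Each cluster held genes of both seed groups. Across the clusters, miR-200b-3p and miR-200c-3p differed by U11G and A22G over the 22 positions compared and shared the first 10 bases. The arms of Mir200a and Mir141 differed by C17A and U22G and shared the first 16 bases, so a 3p read that ended before position 17 would match both. The seeds of Mir205 and Mir203 were different from these and from each other. No other mature miRNA of the 1738 in the RefSeq table had any of these 4 seeds under another gene, and no other hairpin of the 1005 held one of the 7 sequences whole. None was found in a GENCODE transcript away from its own locus. Reads that match several loci were counted at none. For a full-length read of an arm shown, no second copy that would cause this was found in the hairpins and transcripts searched. The other arms and the genome outside transcripts were not searched.

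The loci were taken from GENCODE M21 on GRCm38, with 1-based positions. Mir200b (chromosome 4, 156055681 to 156055750), Mir200a (156054896 to 156054985) and Mir429 (156053905 to 156053987) lay in that order of transcription on the minus strand, with 695 and 908 bases between them. All 3 were inside introns of the tubulin ligase-like gene Ttll10 and inside the noncoding transcript Gm13648, of which Mir429 overlapped an exon. Mir200c (chromosome 6, 124718322 to 124718390, minus strand) and Mir141 (124717914 to 124717985) were 336 bases apart in an intron of the noncoding gene Gm15884. The nearest protein-coding gene to Mir141 was Phb2, 964 bases away. Mir205 (chromosome 1, 193507463 to 193507530, minus strand) overlapped an exon of 4631405K08Rik, a long intergenic noncoding RNA gene. Mir203 (chromosome 12, 112130880 to 112130955, plus strand) had no host gene, and the nearest protein-coding gene, Aspg, was 3321 bases away.

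Each of the 7 genes passed the detection limit of 10 counts per library, as did 348 of the 1973 genes in all. Together they had 44176 sense counts in replicate 1 and 38536 in replicate 2, out of 3581672 and 3576482 sense counts in miRNA genes. This was 1.16% ± 0.11 (SD, n = 2) of the counts. Levels are given as CPM, counts per 1000000 sense counts in genes. They are not divided by hairpin length, since each read is one short RNA and not a fragment of a long one. Intervals are 95% exact binomial (Clopper-Pearson). They treat reads as independent draws within a library and cover counting error only. PCR copies are not independent molecules, so the intervals may be too narrow even for that. How well each sequence was captured in library preparation was not measured, so a ratio between genes is a ratio of reads.

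Mir205 was the most abundant of the 7 in both libraries. It had 18026 counts in replicate 1 and 16404 in replicate 2, or 5033 CPM (4959.8 to 5107) and 4587 CPM (4517 to 4657). Its mean of 4809.7 ± 316 CPM (SD, n = 2) put it at rank 36 of 1973 genes. Mir429 came second with 10982 and 7903 counts, or 3066 and 2209.7 CPM, and a mean of 2638 ± 606 CPM. Mir205 exceeded Mir429 by 1.64-fold in replicate 1 and 2.08-fold in replicate 2, so the first 2 places were held in the same order by both libraries.

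Mir203 and Mir200c changed places between the libraries. Mir203 had 4244 counts (1185 CPM) in replicate 1 and 6747 (1886 CPM) in replicate 2. Mir200c had 6440 counts (1798 CPM) in replicate 1 and 3577 (1000.1 CPM) in replicate 2. The means of 1536 ± 496 and 1399 ± 564 CPM (SD, n = 2) were closer than either SD, and the log2 ratio of Mir203 to Mir200c was -0.60 in replicate 1 and 0.92 in replicate 2. Mir429 lay above Mir203 in both libraries, but by a log2 ratio of 1.37 in one and 0.23 in the other, with an SD of 0.81 around a mean of 0.80.

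The lower 3 places were held in the same order by both libraries. Mir200b had 2972 and 2792 counts, or 829.8 and 780.7 CPM, with a mean of 805 ± 34.7 CPM. This was the smallest relative spread of the 7 when scaled by the sense counts in genes. With the other scalings described below, Mir141 differed less between the libraries. Mir141 had 834 and 653 counts, 233 and 183 CPM, with a mean of 208 ± 35.5 CPM. Mir200a was the least abundant with 678 and 460 counts, 189 and 129 CPM, a mean of 159 ± 42.9 CPM and rank 169. Mir200b was 3.56-fold and 4.28-fold above Mir141. Mir141 was above Mir200a by a smaller step, 1.23-fold in replicate 1 and 1.42-fold in replicate 2, and the counting intervals of its log2 ratio did not reach 0 in either library (0.15 to 0.45 and 0.33 to 0.68).

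**Figure D1:**
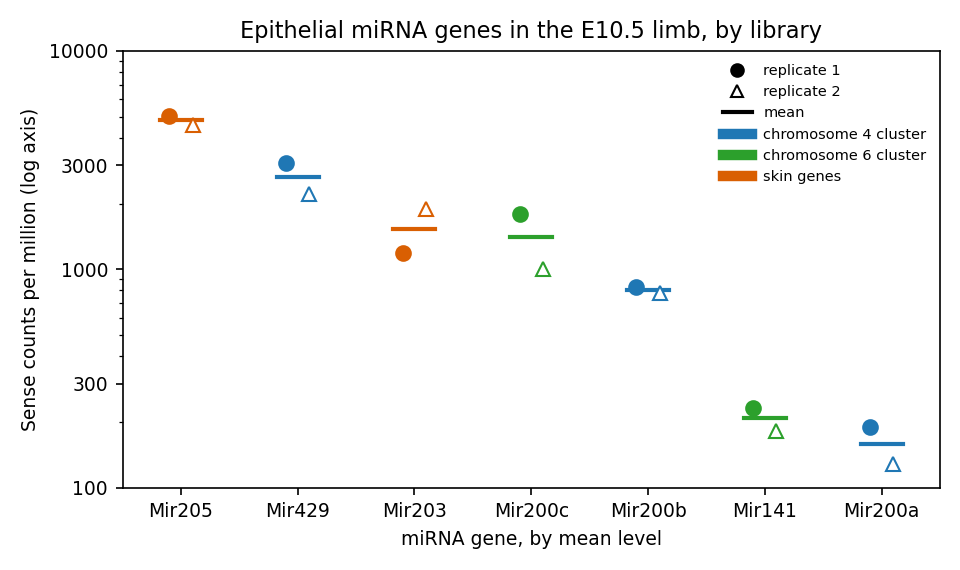
Sense CPM (log axis) of the 7 epithelial miRNA genes, ordered by mean level, with filled circles for replicate 1, open triangles for replicate 2, a bar for the mean of both and colours for the cluster or group. Mir205 lies at the top near 4809.7 CPM and Mir200a at the bottom near 159 CPM, and Mir203 is the gene whose triangle stands above its circle.

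The cluster on chromosome 4 gave more counts than the cluster on chromosome 6. Mir200b, Mir200a and Mir429 together had 14632 counts in replicate 1 and 11155 in replicate 2, or 4085 and 3119 CPM. Mir200c and Mir141 together had 7274 and 4230 counts, or 2031 and 1183 CPM. Both libraries showed the same direction, and the chromosome 4 cluster took 66.8% (66.2 to 67.4) and 72.5% (71.8 to 73.2) of the family's counts. The ratio was 2.01-fold in replicate 1 and 2.64-fold in replicate 2, a mean log2 ratio of 1.20 ± 0.28 (SD, n = 2). The chromosome 4 cluster has 3 genes against 2, and its lead rested on Mir429, without which it lay below the chromosome 6 cluster in both libraries.

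Genes of the same cluster differed more than the clusters did. In the chromosome 4 cluster Mir429 took 75.1% of the counts in replicate 1 and 70.8% in replicate 2, Mir200b took 20.3% and 25.03%, and Mir200a took 4.63% and 4.12%. Mir429, the last of the 3 in the direction of transcription, was 16.2-fold and 17.2-fold above Mir200a, a log2 ratio of 4.06 ± 0.06 (SD, n = 2). Mir200b was 4.38-fold and 6.07-fold above Mir200a, which lies between the other two. In the chromosome 6 cluster the first gene, Mir200c, was 7.72-fold and 5.48-fold above the second, Mir141. In both clusters the first gene was thus above the second, and Mir429 in the last place on chromosome 4 has no gene of matching position on chromosome 6.

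**Figure D2:**
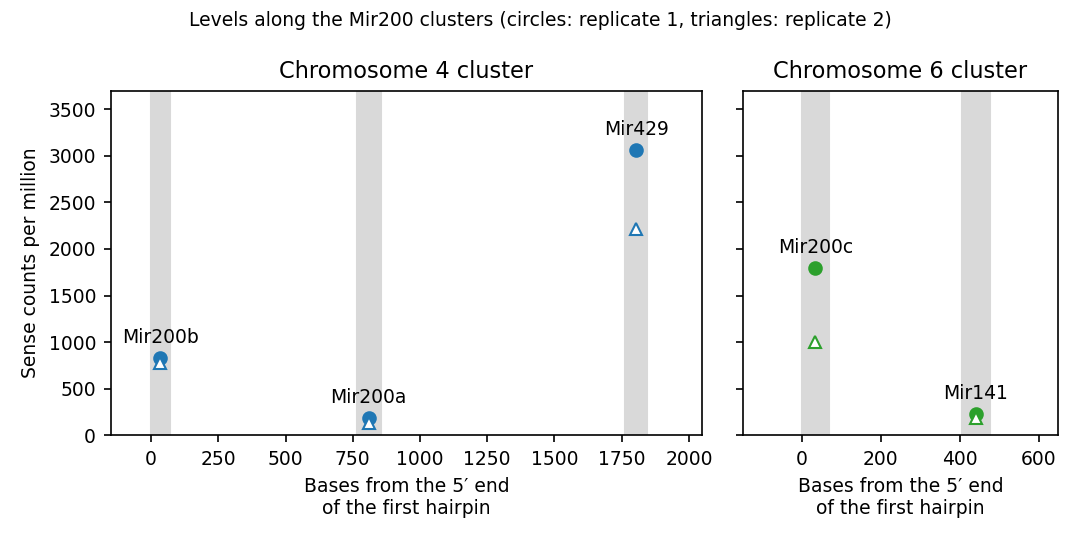
Sense CPM against distance in bases along each Mir200 cluster, measured from the 5′ end of its first hairpin, with grey bands for the hairpins, circles for replicate 1 and triangles for replicate 2. Mir429 at the end of the chromosome 4 cluster and Mir200c at the start of the chromosome 6 cluster stand above their neighbours in both libraries.

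The ratio between the seed groups varied less from library to library than the ratio between the clusters. The 3 genes with AAUACUG had 20394 and 14272 counts, and the 2 with AACACUG had 1512 and 1113. The first group was 13.5-fold and 12.8-fold above the second, a log2 ratio of 3.72 ± 0.05 (SD, n = 2). The 3p arms of the 2 AACACUG genes share their first 16 bases. Reads cut short within these bases would be counted at neither gene, and their number was not measured. The AACACUG genes were the lowest gene of each cluster and together made up 6.90% (6.57 to 7.25) and 7.23% (6.83 to 7.66) of the family's counts. Between the closest relatives across clusters, Mir200c was above Mir200b by 2.17-fold in replicate 1 and 1.28-fold in replicate 2, and Mir141 was above Mir200a by the 1.23-fold and 1.42-fold given above. Both genes of the chromosome 6 cluster therefore lay above their closest relatives on chromosome 4. Mir429, which has the same seed as Mir200c, was 1.71-fold and 2.21-fold above Mir200c. The lead of the chromosome 4 cluster rested on Mir429. Without Mir429, the chromosome 4 genes were 1.99-fold and 1.30-fold below the chromosome 6 genes. The hairpins of Mir429 and Mir200a, the highest and lowest of the family and neighbours in 1 cluster, are shown with both mature arms in capitals. Reads from either arm enter the same count.
Mir429: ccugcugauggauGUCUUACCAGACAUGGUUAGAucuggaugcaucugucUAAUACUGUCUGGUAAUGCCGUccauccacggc
Mir200a: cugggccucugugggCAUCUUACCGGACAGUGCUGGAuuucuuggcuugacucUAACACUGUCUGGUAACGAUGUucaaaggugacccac

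Mir205 and Mir203 together had as many counts as the 5 Mir200 genes in replicate 1, within counting error, and more in replicate 2. Their sum was 22270 counts in replicate 1 and 23151 in replicate 2, or 6218 and 6473 CPM, with a mean of 6345 ± 181 CPM (SD, n = 2). The Mir200 family summed to 21906 and 15385 counts, 6116 and 4302 CPM, with a mean of 5209 ± 1283 CPM. The log2 ratio of the skin genes to the family was 0.02 (-0.003 to 0.05) in replicate 1 and 0.59 (0.56 to 0.62) in replicate 2. Its mean of 0.31 was smaller than its SD of 0.40, so the libraries did not settle which was higher. Mir205 alone was below the Mir200 family in replicate 1 (log2 ratio -0.28) and above it in replicate 2 (0.09). Within the pair Mir205 was above Mir203 in both libraries, 4.25-fold in replicate 1 and 2.43-fold in replicate 2 (log2 ratio 1.68 ± 0.57). Mir203 made up 19.1% (18.5 to 19.6) of the pair in replicate 1 and 29.1% (28.6 to 29.7) in replicate 2.

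Between the libraries, Mir203 was higher in replicate 2 and the other 6 genes were lower when scaled by the sense counts in genes. Log2 ratios are replicate 2 minus replicate 1 with a prior count of 1. The ratio was 0.67 (0.62 to 0.73) for Mir203, -0.09 (-0.16 to -0.01) for Mir200b, -0.13 (-0.16 to -0.10) for Mir205, -0.35 (-0.50 to -0.20) for Mir141, -0.47 (-0.51 to -0.43) for Mir429, -0.56 (-0.73 to -0.38) for Mir200a and -0.85 (-0.91 to -0.79) for Mir200c. Of the 250 genes that averaged 100 counts or more, the 7 included, 66.8% were lower in replicate 2 and the median log2 ratio was -0.27, against a median of -0.35 for the 7 genes. Relative to the median of all genes, Mir200b at 0.18, Mir205 at 0.14 and Mir203 at 0.94 lay above, and the other 4 lay below. With TMM scaling, which shifted every ratio up by 0.29, Mir200b (0.20) and Mir205 (0.16) were higher in replicate 2, so the direction of these 2 genes was not settled. Replicate 1 held 10064833 reads in all and replicate 2 held 7218612, so scaling by all reads would also raise every ratio. Ratios of single genes on that scale were not computed, and more directions may change there.

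None of the 7 genes differed by over 2-fold between the libraries, against 10.8% of the 250 genes, a share that would be less than 1 gene in 7. Of the 250, 1.2% were over 2-fold higher and 9.6% over 2-fold lower in replicate 2, or 3 and 24 genes, and TMM scaling gave 6 and 14. The ratio of Mir203 was above that of 96.4% of the 250 genes and the ratio of Mir200c above that of 13.6%. The chromosome 6 cluster fell by 0.78 and the chromosome 4 cluster by 0.39 on the log2 scale, while the sum of Mir205 and Mir203 differed by 0.06. The quartiles of the 250 genes, -0.58 and 0.12, enclosed the ratios of the 5 genes other than Mir203 and Mir200c.

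**Figure D3:**
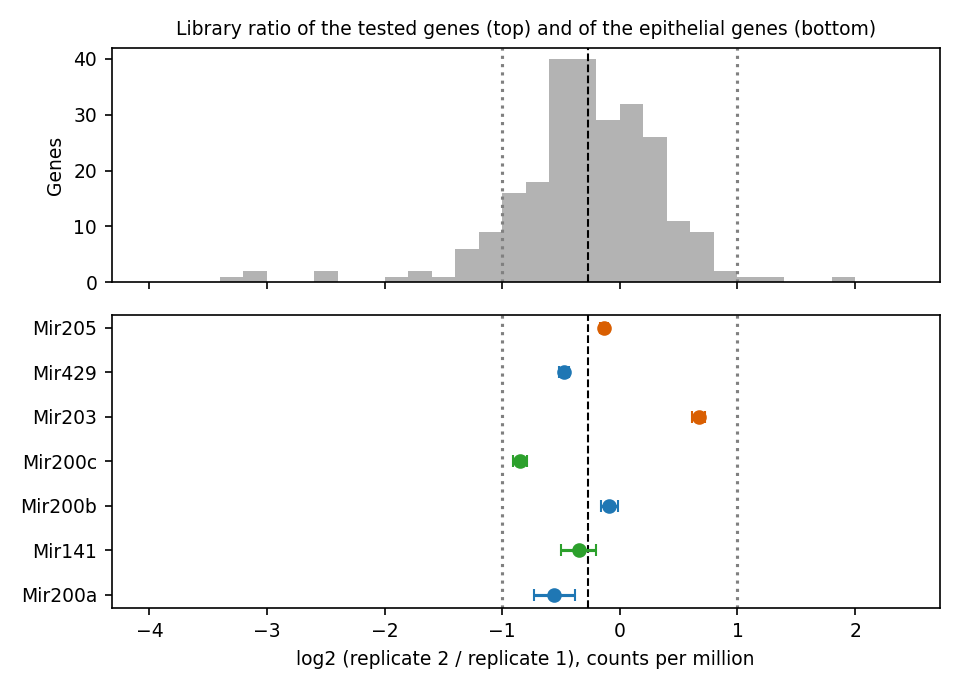
Histogram of the log2 ratio (replicate 2 over replicate 1) of the 250 genes that averaged 100 counts or more, above the same ratio for each of the 7 epithelial genes with its 95% counting interval. The dashed line marks the median of the 250 genes at -0.27 and dotted lines mark 2-fold, and Mir203 at 0.67 and Mir200c at -0.85 are the genes farthest from the dashed line.

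Genes of other cell types also moved between the libraries. The mesenchyme list (Mir214, Mir143, Mir22, Mir145a and the 3 Mir199 genes) had 7 of 7 genes detected and summed to 24188 CPM in replicate 1 and 28717 in replicate 2. Most of that sum was Mir214, with 16591 and 20513 CPM, while Mir143 had 4861 and 5125 CPM and Mir22 went the other way, from 1153 to 679.7 CPM. The blood list, led by the red cell gene Mir451a, went from 683 to 428 CPM with 4 of the 5 genes analysed here detected, and the muscle list, led by the skeletal muscle gene Mir206, from 27.9 to 104.9 CPM with 1 of 5 detected and Mir1a-1, Mir133a-1 and Mir133a-2 at 0. The zeros set no limit, since these 3 genes encode mature sequences found at other loci too. Unmapped reads were 32.3% of replicate 1 and 18.6% of replicate 2. The part of tissue makeup or library quality in the shifts of Mir203 and the Mir200 genes was not tested. In bulk tissue, fewer cells of a type and less RNA per cell cannot be told apart.

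Set against mesenchyme within each library, where scaling has no effect, the 7 epithelial genes were the smaller group. Their sum was 1.96-fold below the mesenchyme list in replicate 1 and 2.67-fold below it in replicate 2, a log2 ratio of -1.19 ± 0.31 (SD, n = 2). The Mir200 family alone was 3.95-fold and 6.68-fold below, and Mir205 with Mir203 was 3.89-fold and 4.44-fold below. The skin pair therefore kept a steadier ratio to mesenchyme (SD 0.13 on the log2 scale) than the Mir200 family (SD 0.53), although Mir205 and Mir203 each moved more than their sum. The mesenchyme total is uncertain, because the 3 Mir199 genes encode shared mature sequences and the multimapping reads from these were not counted. Against Mir214 alone, the largest gene of that list at 18552 ± 2773 CPM, the 7 genes were 1.35-fold and 1.90-fold below.

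The 7 genes were also set against other epithelium-associated genes. That list held Mir182, Mir183 and Mir96 of one sensory and epithelial cluster, Mir375, Mir31, Mir184, Mir34b, Mir34c and the 3 Mir449 genes of multiciliated cells. It had 8 of 11 genes detected and summed to 9273 CPM in replicate 1 and 7939.7 in replicate 2, led by Mir182 (3339 ± 17.9 CPM), Mir183 (2315 ± 556 CPM) and Mir375 (1033 ± 99.3 CPM). The 7 epithelial genes were 1.33-fold above it in replicate 1 and 1.36-fold in replicate 2, a log2 ratio of 0.43 ± 0.02 (SD, n = 2). This even ratio was one of the sum alone, whose parts moved apart. The log2 ratio of the Mir200 family to the list went from -0.60 in replicate 1 to -0.88 in replicate 2, and that of Mir205 with Mir203 from -0.58 to -0.29. Gut and liver genes, which would mark another kind of epithelium, summed to 125 and 93.9 CPM, led by Mir192 at 53.1 ± 8.64 CPM. The neural list, most of whose genes have several copies, summed to 157 and 175 CPM, and Mir126a, the endothelial gene, had 26707 and 23683 CPM. These other lists lay on both sides of the 7 genes, with the counted sums of gut, neural, blood and muscle each below Mir205 alone. Reads that match several loci were counted at none, so sums of lists with multicopy genes, such as neural and muscle, may be too low.

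**Figure D4:**
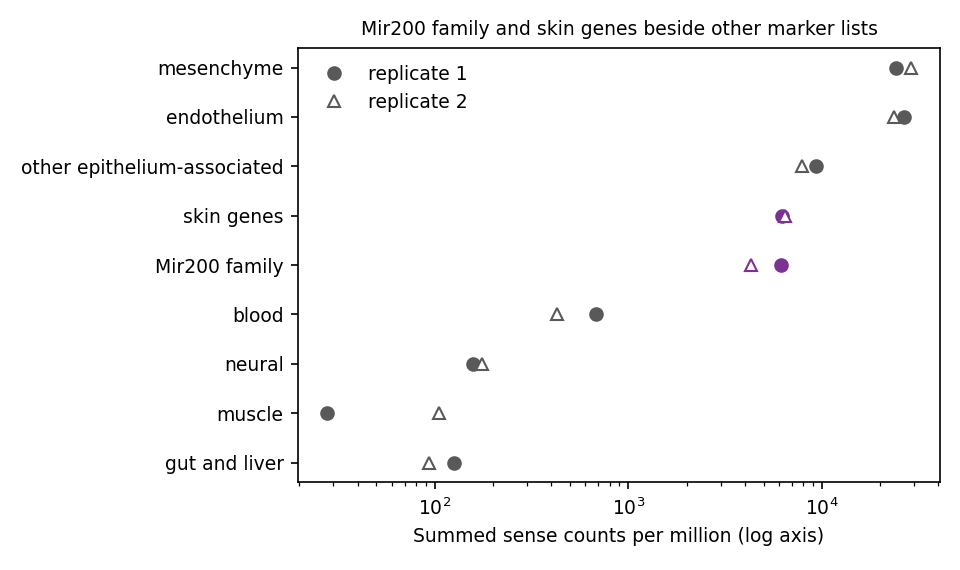
Summed sense CPM (log axis) of the Mir200 family and the skin genes, in purple, and of the other lists, in grey, with circles for replicate 1 and triangles for replicate 2. The skin genes sit at 6218 and 6473 CPM and the Mir200 family at 6116 and 4302 CPM. Mesenchyme, endothelium and the other epithelium-associated genes (9273 and 7939.7 CPM) lie above both, and blood, neural, muscle, and gut and liver genes below.

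The gene nearest to each of the 7 in level over both libraries was found by Euclidean distance of log2 CPM among the 243 other genes that averaged 100 counts or more. With 2 libraries this likeness is a description of level and ratio and no more. Mir203 was nearest to Mir199b, a gene of the mesenchyme list, which had 1176 and 1879.5 CPM (distance 0.012). Mir200b was nearest to Mir25 (distance 0.049), Mir200a to Mir673 (0.070), Mir205 to Mir351 (0.102), Mir429 to Mir379 (0.112) and Mir141 to Mir32 (0.173). Mir200c had no close neighbour by comparison, the nearest being Mir381 at 0.269 with 1548 and 1119 CPM.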

How the data were processed

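Short RNAs (labelled as under 30 bases) were sequenced from 2 pools of embryonic limbs. The deposited tables, one for each library, hold raw counts per miRNA gene. The readme texts deposited with them name the assembly mm10 and the annotation GENCODE M4. By their values, the 3 columns are both strands, sense and antisense. The aligner and counter are not stated in the sources used here. The rows for unassigned reads were left out of CPM. Of the reads, 21.9% and 25.4% were multimapping and counted at no gene.

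Sense counts were used. Symbols and loci came from GENCODE M21 on GRCm38, the same build as mm10, in which 1894 of 1973 identifiers matched. For Mir200b and Mir200c the identifier version differs between the tables and M21, so the counted boundaries may differ from those given. A count of 0 allows 0.838 and 0.839 CPM (3 counts). Nothing beyond the labels shows how separate the pools were, so an SD measures the spread between these 2 libraries. The genes, lists and naming rule were chosen with earlier results of these data known. The genes named are the 7, the nearest gene to each, and up to 3 leading genes of each list. Other list genes were named to say what a list holds. After their values were seen, Mir22 was named for going the other way and some genes for being at 0. Alternatives were TMM scaling (edgeR 4.0.16), DESeq2 1.42.0 size factors, both strands, a prior count of 5, a minimum of 10 counts and single libraries. Only the library ratios and their intervals were tried on simulated counts. These had counting error alone, without PCR copies or added variation between libraries. The simulation therefore does not show how the intervals hold in these data. Ratios between genes within a library, and shares, were not simulated. Python 3.11.15, numpy 2.4.6, pandas 2.3.3, scipy 1.17.1 and R 4.3.3 were used.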

Additional observations from a re-analysis of the deposited data

Results flagged for a closer look

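Antisense reads were outside the main measurement. Of the 7 genes, Mir203 alone had any, 42 in replicate 1 and 35 in replicate 2, above the 3 counts that a count of 0 allows. They made up 0.980% (0.707 to 1.32) and 0.516% (0.360 to 0.717) of all reads at the Mir203 locus, against 2.30% and 1.70% antisense over all miRNA genes. In each library Mir203 ranked 11 by antisense count, among 23 genes in replicate 1 and 17 in replicate 2 with over 3 such counts. Groups of 2 libraries are too small for an outlier check.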

How the results depend on the processing

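Counting both strands or using a prior count of 5 moved the library ratio of each of the 7 genes by at most 0.0088 on the log2 scale. TMM and DESeq2 scaling reversed the library ratio of Mir200b (from -0.09 to 0.20 and 0.19), of Mir205 (from -0.13 to 0.16 and 0.14) and of the 7 genes together (from -0.19 to 0.094 and 0.081), and the other 5 genes kept their sign. With all reads as the denominator the 7 genes had a mean of 4864 counts per 1000000 reads in place of 11554 CPM. Library ratios on that scale were not computed. Replicate 1 had more reads (10064833 against 7218612), so they would lie higher than those given, and some directions may change. Against Mir214 alone the mean log2 ratio was -0.68 in place of -1.19. With at least 10 counts on average, 54 of 360 genes were over 2-fold, against 27 of 250. In either library alone, the cluster, seed group, skin pair and mesenchyme ratios kept their direction, that of the skin genes to the Mir200 family was 0.02 in replicate 1 and 0.59 in replicate 2, and those of Mir205 to the Mir200 family and of Mir203 to Mir200c changed direction. No paired analysis was possible because there is 1 group. Depth limits Mir200a and Mir141 most, with under 1000 counts each.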
